A study of Mus musculus with 3 samples.

Results

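The forkhead transcription factor genes were followed as a family through the DNA methylation data of this series. A member's window ran from 5000 bp upstream of its gene start to 5000 bp past its gene end in the GENCODE vM1 annotation of the mouse genome build mm9, and a CpG was used where more than 10 reads covered it. The 35 members comprised 15 developmental genes (the Foxa, b, c, d, e, f and l families), 14 broadly expressed genes (Foxk, m, n, o and p, Foxj2 and Foxj3) and 6 in neither class (Foxh1, Foxi1, Foxi2, Foxj1, Foxq1 and Foxs1). The classes follow the family letter, not expression in these cells, and Foxn1 and Foxn4 of the second class act in few tissues. The study profiled mouse embryonic stem (ES) cells by reduced representation bisulfite sequencing (RRBS), which reads methylation at CpGs near MspI sites and so favours CpG-rich DNA. It has 3 libraries, 1 per genotype, all grown in serum with LIF. Wild-type cells (mixed 129-C57Bl/6, kept on feeders or gelatine) were compared with Dnmt3a KO cells of the same mixed strain, in which 2 CRISPR guides to a shared exon of the de novo methyltransferase gene removed both isoforms, and with Dnmt TKO cells (strain J1), which lack Dnmt1, Dnmt3a and Dnmt3b. The knockout lines were grown on gelatine. With 1 library each, genotype cannot be told apart from line, strain, culture or library, and no difference here has a replicate check.

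Forkhead proteins bind DNA through a winged-helix domain. Developmental members such as FOXA1 and FOXD3 specify germ layers, endoderm, mesoderm or neural crest. The CpG island promoters of such genes are typically held silent but unmethylated in ES cells by Polycomb, although Foxd3 itself is also active there. Others serve most cells: FOXO factors carry out the response to low insulin signalling, and FOXM1 drives mitotic genes.

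Member windows held 4060 of 968951 CpGs in wild type (median 40 reads), 3521 of 813127 in Dnmt3a KO (median 21 reads) and 1648 of 431051 in Dnmt TKO (median 14 reads, 33 genes). Wild type and Dnmt3a KO shared 2974 member CpGs of 630778 shared CpGs in all, and every member had at least 5 of them. No CpG fell in the windows of 2 members. Some windows lie partly in other annotated genes, for example 21 shared CpGs of Foxa3 in Sympk, and all 141 of Foxc2 and all 102 of Foxl1 in Gm20388.

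Stretches rich in CpGs that were lower in Dnmt3a KO are shown beside a pair of unmethylated promoter stretches. A CpG was called lower or higher in Dnmt3a KO when Fisher's exact test on methylated and unmethylated reads, adjusted by Benjamini-Hochberg over all shared CpGs, gave a value under 0.05 and the difference was at least 20 percentage points. This test compares 2 libraries, not 2 genotypes. The 3 stretches shown first hold the most called CpGs within 300 bases in developmental members, in broadly expressed members and in members of neither class. All are on the plus strand of mm9, and capitals mark CpGs called lower.
Foxa1 intron, chr12:58644490-58644634: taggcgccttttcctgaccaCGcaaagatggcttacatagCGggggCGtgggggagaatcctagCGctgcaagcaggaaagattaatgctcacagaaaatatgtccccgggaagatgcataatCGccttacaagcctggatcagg
Foxp4 past the gene end, chr17:48003137-48003190: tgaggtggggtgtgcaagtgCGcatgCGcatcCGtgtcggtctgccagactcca
Foxs1 coding exon, chr2:152758431-152758689: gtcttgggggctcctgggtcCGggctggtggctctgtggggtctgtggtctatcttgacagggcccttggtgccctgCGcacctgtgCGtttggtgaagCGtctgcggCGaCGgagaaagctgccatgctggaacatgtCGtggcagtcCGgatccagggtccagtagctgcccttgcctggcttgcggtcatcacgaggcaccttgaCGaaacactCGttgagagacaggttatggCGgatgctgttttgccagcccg
The next 2 were chosen in promoters (1000 bp either side of a gene start) of developmental and of broadly expressed members, outside UTRs, as the window of 200 bases with the most CpGs measured in all 3 libraries, and those CpGs are in capitals.
Foxe3 coding exon, chr4:114597864-114597997: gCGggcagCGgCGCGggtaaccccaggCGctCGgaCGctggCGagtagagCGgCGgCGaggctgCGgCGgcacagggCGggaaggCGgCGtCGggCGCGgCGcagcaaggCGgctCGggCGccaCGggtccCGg
Foxn2 upstream of the gene start, chr17:88839638-88839767: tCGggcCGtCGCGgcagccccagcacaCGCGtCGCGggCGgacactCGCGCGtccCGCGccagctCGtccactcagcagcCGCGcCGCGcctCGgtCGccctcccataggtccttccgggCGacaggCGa
Here 25 of 25 CpGs at Foxe3 and 23 of 24 at Foxn2 were measured in all 3 libraries. Foxe3 averaged 0.378% and 0%, and Foxn2 0.383% and 0.0694%, with wild type given first. Where a pair of values stands without a library below, the first is wild type and the other is Dnmt3a KO. The Foxs1 stretch holds fewer CpGs over a longer run, 15 in 259 bases, with a mean of 78.2% that dropped to 36.9%. Its 11 called CpGs, chosen for their difference, ranged from 55.4% to 89.7% and from 8.82% to 45.7%. The 4 others of the stretch ranged from 77.0% to 89.2% and from 58.3% to 75.0%, and each was lower in Dnmt3a KO. The 7 CpGs of the Foxa1 stretch averaged 33.5% and 4.19%. At 4 of its 5 called CpGs, Dnmt3a KO had no methylated read. The 4 CpGs of the Foxp4 stretch averaged 49.1% and 0.862%.

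In all, 40 member CpGs were called lower and 0 higher by Fisher's exact test, against 117 lower and 1 higher at an unadjusted p under 0.05. Of all 630778 shared CpGs, 1.64% were called lower and 0.0295% higher. The members' share of 1.34% lower is close to this background. The calls lay in 14 genes: 15 in 7 developmental members, 10 in 5 broadly expressed members and 15 in Foxs1 and Foxi2. Foxs1 held 11, Foxp4 6, Foxa1 5, Foxa3 and Foxi2 4 each, and Foxb2 2. Foxc1, Foxc2, Foxl1, Foxl2, Foxk1, Foxm1, Foxn1 and Foxn3 held 1 each. With reads thinned to equal depth at each CpG, 18 CpGs were called, 16 of them among these 40. No call remained in Foxi2, Foxc1, Foxc2, Foxk1, Foxm1, Foxn1 or Foxn3, while 7 remained in Foxs1, 3 in Foxp4 and 2 in Foxa1.

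The 2 classes differed first in level. In wild type the median over developmental members of their mean methylation was 3.62% (range 0.105% to 23.7%), and over broadly expressed members 19.0% (2.32% to 72.0%). All protein-coding genes had a median of 17.0%. In Dnmt3a KO the medians were 0.829%, 15.4% and 8.33%. Each library's medians are over the CpGs it covered itself, so they do not compare the libraries at the same CpGs. Differences over shared CpGs are given further below. Promoters with at least 5 covered CpGs did not share this gap. Their wild-type medians were 0.317% for 15 developmental members, 0.189% for 10 broadly expressed members and 0.201% for all genes. Foxk2, Foxn1 and Foxn3, with no covered promoter CpG in wild type, and Foxm1, with 4, are not among these 10. Gene structure moved with class. Developmental members had a median length of 2619 bp and 9 of 15 had a single exon, whereas broadly expressed members had a median length of 59015.5 bp and none had a single exon. Promoters held 854 of 1622 shared CpGs in developmental members and 452 of 1081 in broadly expressed members, and gene bodies 511 and 517. Without the 5000 bp sides the wild-type medians were 0.803% and 31.2%, and at CpGs shared by all 3 libraries 1.10% and 3.72%. Above 20 reads the Dnmt3a KO median of the broadly expressed members was 0.774%, over 12 members.

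**Figure D1:**
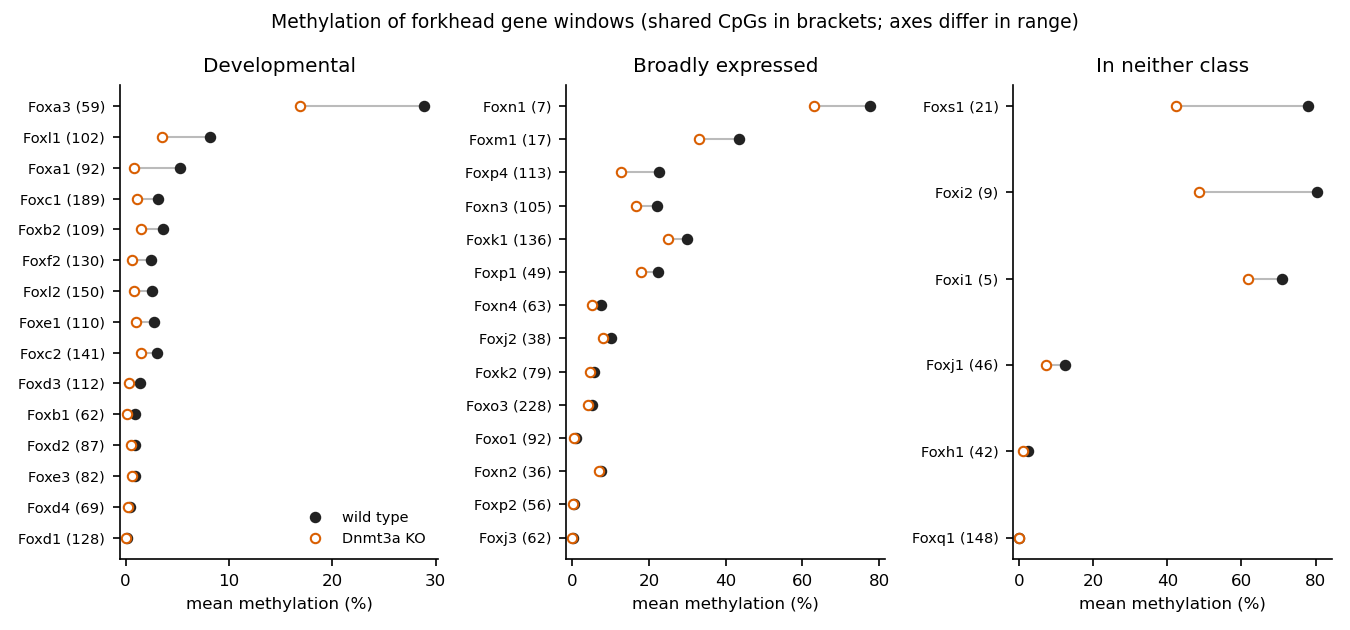
Mean methylation (%) of each member over the CpGs shared by wild type (filled) and Dnmt3a KO (open), by class, with the number of CpGs in brackets; the horizontal axes differ in range and no error is drawn. The open point lies left of the filled point in 34 of 35 members, with the widest gaps at Foxs1 (77.9% and 42.2%) and Foxi2 (80.4% and 48.5%).

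Over shared CpGs, 34 of 35 members were lower in Dnmt3a KO than in wild type, with a median difference of -1.71 points in developmental members and -2.27 points in broadly expressed members, beside -1.80 for all protein-coding genes. Foxq1 was the exception, at 0.0755% and 0.0952%. Members lower by at least 10 points numbered 5 of 35, or 14.3%, beside 13.7% of protein-coding genes. These were Foxs1, Foxi2, Foxn1, Foxa3 and Foxm1. Relative to the starting level the classes parted over whole windows. The mean over 1622 developmental CpGs went from 3.62% to 1.54%, a difference of -2.08 points (95% interval -2.22 to -1.94), or 57.5% of the wild-type level. Over 1081 broadly expressed CpGs it was 13.1% and 9.90%, a difference of -3.21 points (-3.53 to -2.88), or 24.5%. All genes lost 25.8% of their level, from 14.6% to 10.9%. Near gene starts the classes lay closer. Within 10000 bp the shares lost were 59.1% for developmental members, 49.7% for broadly expressed members and 32.3% for all genes. Farther away broadly expressed members lost 22.6%, all genes 22.9% and the 5 developmental CpGs there 27.2%. The part of place was not tested, and this split was chosen after the data were seen. Intervals are Newcombe intervals of the pooled reads around the mean over CpGs. They cover counting error only, treat PCR copies and CpGs on 1 read as independent, and hold no variation between cultures. The difference between the classes was not tested, since genes and CpGs are not replicates.

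A difference is bounded by the level it starts from, so the classes were also compared at CpGs with like methylation in wild type. At CpGs of at least 50%, developmental members went from 70.0% to 36.4%, a difference of -33.6 points (95% interval -37.9 to -29.1, 36 CpGs in 9 genes). Broadly expressed members went from 76.3% to 61.3%, or -15.1 points (-17.2 to -12.9, 161 CpGs in 12 genes). All protein-coding genes stood at -16.6 points. Of these CpGs, 19.4% in developmental members, 4.97% in broadly expressed members and 6.88% of all shared CpGs were called lower. The 6 other members stood at -29.0 points over 38 CpGs in 4 genes, with 39.5% called, all in Foxs1 and Foxi2. Between 20% and 50%, the differences were -23.0 points for 38 developmental, -17.4 for 34 broadly expressed and -16.1 for all CpGs. Between 5% and 20% they were -7.73, -7.34 and -6.44, and under 5% they were -0.138, -0.174 and -0.0577. The intervals of both classes overlapped in each range under 50% and did not overlap above it. Median reads at CpGs of at least 50% were 27 and 17 in developmental and 38 and 16 in broadly expressed members, and the part of depth was not tested. Choosing CpGs by a high wild-type level favours a lower value in the other library. With CpGs of at least 50% in Dnmt3a KO instead, the values were -14.0 points over 10 developmental CpGs, -7.18 over 122 broadly expressed CpGs and -7.35 over all genes. Of the 36 developmental CpGs at this level 18 lie in Foxa3, and without it the difference was -36.4 over 18 CpGs. Above 20 reads only 9 developmental CpGs remained, all in Foxa3, at -34.7 points.

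**Figure D2:**
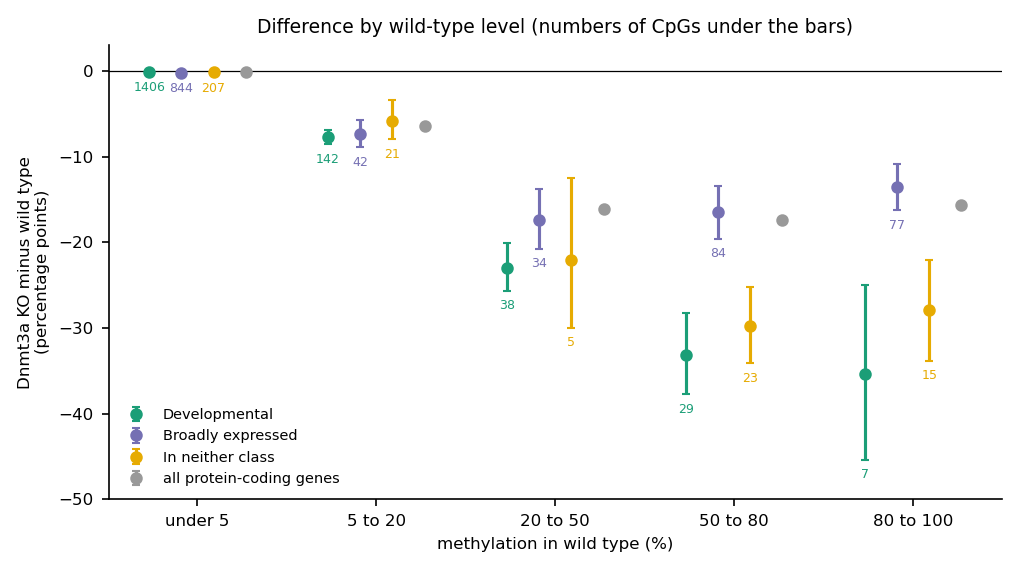
Difference in methylation, Dnmt3a KO minus wild type (percentage points), by the CpG's methylation in wild type (%), for the 3 classes and all protein-coding genes; points are means over CpGs, bars 95% Newcombe intervals of pooled reads, and numbers count CpGs. From 50 to 80%, developmental members lie at -33.2, broadly expressed members at -16.5 and all genes at -17.4 points.

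Class and place in the gene moved together here as well. Of the methylated developmental CpGs, 33 of 36 lay within 10000 bp of the gene start, but only 9 of the 161 broadly expressed ones did. At that distance the difference was -34.8 points (-39.2 to -30.1) for developmental members, -23.0 (-32.8 to -12.6, 4 genes) for broadly expressed members and -19.2 for all genes. Farther away the broadly expressed members stood at -14.6 and all genes at -15.5. Near gene starts the intervals of both classes overlapped, and the broadly expressed value rests on 9 CpGs. As a median over genes, the differences were -30.8 points for 9 developmental, -14.7 for 12 broadly expressed and -16.2 for all genes. The distance split and the median were chosen after the data were seen.

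**Figure D3:**
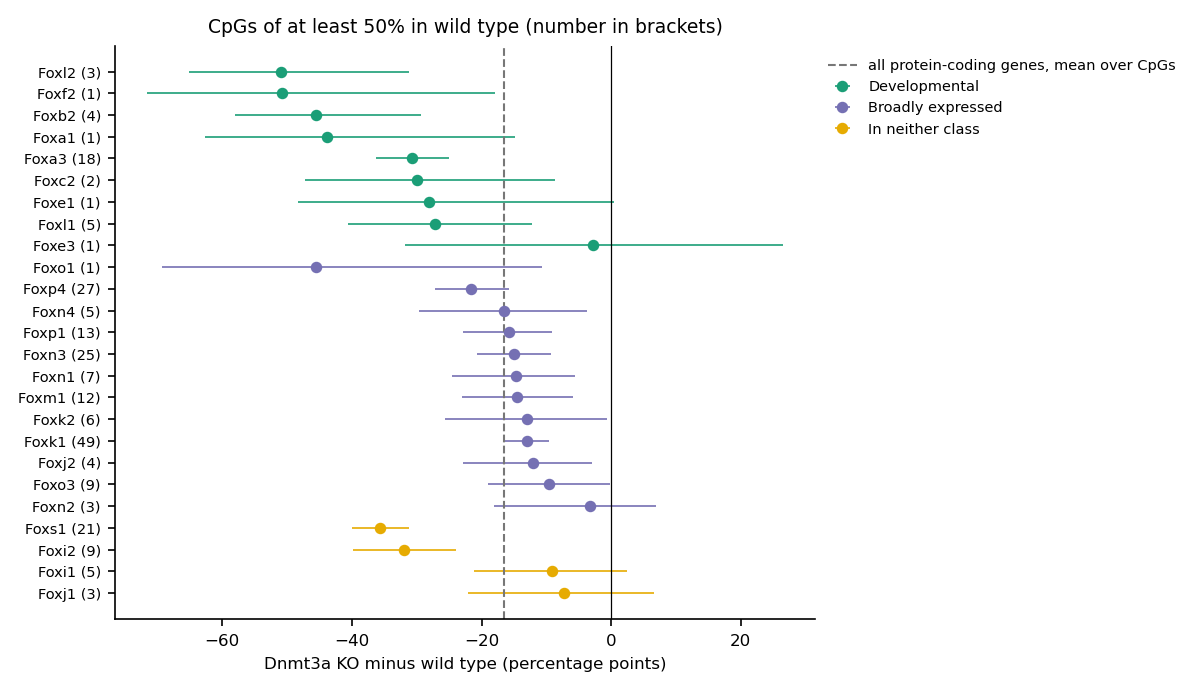
Difference in methylation (percentage points, horizontal) at CpGs of at least 50% in wild type for each of the 25 members that had any, with the number of CpGs in brackets and bars giving 95% Newcombe intervals of pooled reads. Of the developmental members 8 of 9 lie left of the dashed line for all genes (-16.6), and of the broadly expressed members Foxo1, Foxp4 and, barely, Foxn4.

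The FOXA pioneer factors, which open chromatin for endoderm genes, were lower in Dnmt3a KO mainly away from their promoters. Foxa3 (chr7:19598631-19608887, minus strand) fell from 28.8% to 16.8% over 59 shared CpGs, a difference of -12.0 points (-13.7 to -10.1), the largest of its class. Its promoter was at 1.11% and 0.104%. Of its 18 CpGs of at least 50%, 15 lay in the gene body 8554 to 9167 bp from the gene start and 3 past its end. The 4 called CpGs, in a coding exon, ranged from 68.0% to 79.7% in the wild-type library and from 11.8% to 36.7% in the Dnmt3a KO library. Foxa1 (chr12:58641618-58647108, minus strand) stood at 5.29% and 0.812% over 92 CpGs, a difference of -4.48 points (-5.04 to -3.87), so that 84.6% of its wild-type level was gone. The gene body with the intron shown above stood at 11.2% and 1.36%, the promoter at 0.215% and 0%. Summed over the 5 called CpGs, with a read counted at each CpG it covers, 151 of 391 reads were methylated in wild type and 2 of 144 in Dnmt3a KO.

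Other developmental members had single called CpGs, or a pair of them at Foxb2, mostly outside the promoter. Foxl1, a regulator of gut mesenchyme, is typed as a pseudogene in this annotation and stood at 8.20% and 3.51% over 102 CpGs (-4.69 points, -5.38 to -3.94). It was also the one developmental promoter above 2%, at 6.64% and 2.34%, and its called CpG, 44 bp past the gene start, went from 29.2% (47 of 161 reads) to 5.19% (4 of 77). Foxc1 (chr13:31898515-31902504), needed for eye and vessel development, stood at 3.15% and 1.08% over 189 CpGs (-2.08 points, -2.49 to -1.64). Downstream of the gene it was at 9.53% and 2.90%, and its promoter at 0.568% and 0.0545%. Foxb2 stood at 3.58% and 1.51% over 109 CpGs (-2.07 points, -2.61 to -1.47). Its 2 called CpGs, more than 4 kb upstream, were both at 86.4% in the wild-type library and at 26.7% and 18.8% in the Dnmt3a KO library. Foxl2, the ovarian determinant, had 1 called CpG past its end at 66.7% (10 of 15 reads) and 0% (0 of 17). Foxc2, the lymphatic regulator, had 1 upstream at 40.0% (22 of 55) and 0% (0 of 22).

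No CpG was called in Foxb1, Foxd1 to Foxd4, Foxe1, Foxe3 or Foxf2. Foxf2 stood at 2.51% and 0.624%, and Foxe1, a thyroid regulator, at 2.71% and 0.993%. In Foxe1 the 6 upstream CpGs carried the difference, at 40.2% and 15.6%, against 0.487% and 0.0548% in the promoter. Foxd3, a neural crest factor that is also active in ES cells, stood at 1.44% and 0.381% over 112 CpGs, and Foxb1 at 0.908% and 0.134%. Foxd2 and Foxe3 were under 1% in both libraries over shared CpGs, and at 1.18% and 2.75% over all CpGs covered in wild type. The smallest changes of the class were those of Foxd1, at 0.116% and 0.0792% over 128 CpGs (-0.0365 points, -0.137 to 0.129), and Foxd4, at 0.468% and 0.241% over 69 CpGs (-0.227 points, -0.583 to 0.220). Both intervals hold 0.

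**Figure D4:**
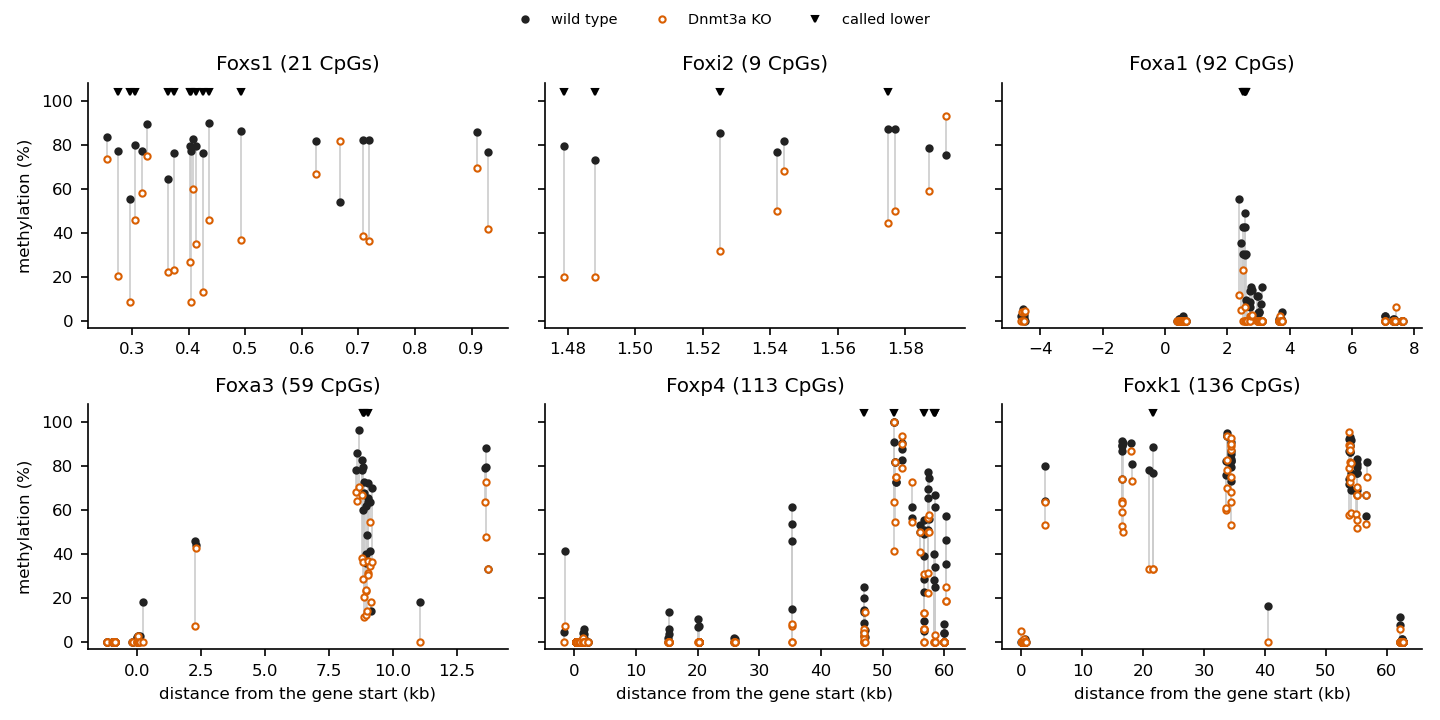
Methylation (%) of single shared CpGs in wild type (filled) and Dnmt3a KO (open) against distance from the gene start (kb) for 6 members, with triangles over CpGs called lower. In Foxs1 and Foxi2 every CpG shown starts above 50%, in Foxa1 the called CpGs sit in 1 intronic cluster 2495 to 2598 bp from the gene start, and in Foxk1 46 of the 49 CpGs of at least 50% in wild type are also at least 50% in Dnmt3a KO.

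Gene bodies of broadly expressed members, over 517 shared CpGs in 12 members, were lower in Dnmt3a KO by 22.2% of their wild-type level, beside 24.2% for all protein-coding genes. The share was 16.2% in Foxk1 (80.6% and 67.6%, 50 CpGs) and 42.3% in Foxm1 (63.0% and 36.3%, 5 CpGs). In Foxo1 it was 59.5% of a low level (3.90% and 1.58%, 23 CpGs). The only Foxo1 CpG of at least 50% in wild type stood at 81.8% and 36.4%, with 11 reads in Dnmt3a KO. Foxn1, the thymic epithelium factor, had 7 shared CpGs, all in its body, at 77.7% and 63.0% (-14.8 points, -24.5 to -5.57). Foxm1 (chr6:128312985-128325911) stood at 43.4% and 33.1% over 17 CpGs (-10.3 points, -17.4 to -2.72). Its called CpG in an intron went from 70.8% (34 of 48 reads) to 9.52% (2 of 21), while its 4 shared promoter CpGs had no methylated read in either library. Foxp4 (chr17:48004082-48061594, minus strand) stood at 22.5% and 12.7% over 113 CpGs (-9.80 points, -11.0 to -8.54), the broadly expressed member with the most calls. Past its end the 18 CpGs were at 27.0% and 6.88%, and its 20 promoter CpGs at 0% in both. Foxn3 stood at 22.0% and 16.5% over 105 CpGs (-5.48 points, -6.95 to -3.93). Its called intronic CpG went from 65.5% (36 of 55) to 0% (0 of 13). Foxk1 stood at 29.8% and 25.0% over 136 CpGs (-4.89 points, -5.90 to -3.84). It held 49 methylated CpGs, the most of any member, at 81.9% and 69.0%, and 1 of them was called.

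Foxp1 stood at 22.3% and 17.8% over 49 CpGs, and Foxn4 at 7.55% and 5.11% over 63. Foxj2 (10.2% and 8.10%), Foxk2 (5.79% and 4.67%), Foxo3 (5.12% and 4.19%) and Foxn2 (7.54% and 7.06%) each differed by under 3 points. Foxo1 stood at 0.975% and 0.468%. The smallest changes were those of Foxj3, at 0.0766% and 0% over 62 CpGs (-0.0766 points, -0.192 to 0.132), and Foxp2, at 0.527% and 0.127% over 56 CpGs (-0.400 points, -0.726 to 0.0442). At Foxk2 methylated reads divided by all reads gave 0.315 points, the opposite direction.

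Of the members in neither class, Foxs1 (chr2:152757634-152758944, minus strand), a gene of vascular and neural crest derivatives, stood at 77.9% and 42.2% over 21 CpGs. The difference of -35.7 points (-40.0 to -31.1) was the largest of the family, and 11 of the 21 CpGs were called, with adjusted p from 3.13e-11 to 0.0447 by Fisher's exact test. Foxi2 (chr7:142602050-142605298, plus strand) stood at 80.4% and 48.5% over 9 CpGs of a coding exon (-32.0 points, -39.8 to -23.9). Its CpGs were uneven: 1479 bp from the gene start methylation went from 79.2% to 20.0%, but 1592 bp from it 75.5% in wild type stood beside 92.9% in Dnmt3a KO (14 reads). Foxi1, an inner ear and kidney factor, stood at 70.9% and 61.8% over 5 promoter CpGs (-9.11 points, -21.1 to 2.45), an interval that holds 0. Foxj1, the regulator of motile cilia, stood at 12.3% and 7.35% over 46 CpGs (-4.96 points, -6.88 to -2.97). Foxh1, the DNA-binding partner of SMAD2 and SMAD3 in NODAL signalling, stood at 2.33% and 1.20% over 42 CpGs (-1.14 points, -1.79 to -0.319). Foxq1 was unmethylated, and its difference was 0.0196 points (-0.0877 to 0.176, 148 CpGs).

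Methylated promoters were few and poor in CpGs. In wild type 3 members had at least 20% around the annotated gene start: Foxs1 at 78.5% (24 CpGs), Foxi1 at 68.8% (13 CpGs) and Foxp1 at 21.4% (8 CpGs). In Dnmt3a KO these stood at 40.5% (23 CpGs), 61.8% (5 CpGs) and 3.33% (2 CpGs). The mm9 sequence of these promoters holds 49, 37 and 23 CpGs, beside medians of 153 in developmental members, 126.5 in broadly expressed members and 61 in all protein-coding genes. Few CpGs did not always go with methylation. The Foxh1 promoter holds 45 CpGs and was under 5% in wild type over 17 covered CpGs. Foxk2 and Foxn3, with 22 and 23 CpGs in the sequence, had no covered promoter CpG in wild type. The 21 shared CpGs of Foxs1 all lay in its coding exon, 256 to 930 bp past the gene start. Those of Foxi1 lay in a coding exon (4) or UTR (1). The shared CpGs of Foxs1 and Foxi1 thus do not cover the side upstream of the start. Foxn1 and Foxi2 had no covered promoter CpG in wild type and stood at 83.5% and 9.49% over 5 CpGs each in Dnmt3a KO, with 32 and 64 CpGs in the sequence. The annotated start is not always the CpG-rich one. At Foxp1 a second group of transcripts, 238340 bp into the gene, was at 0% over 41 CpGs in wild type and 38 in Dnmt3a KO, and the inner starts of Foxk2 and Foxn3 were at 0.165% and 0.545% in wild type. At Foxm1 the opposite held, with an inner start at 65.4% (12 CpGs) and 42.4% (6 CpGs). A run of CpGs under 20% methylation around the gene start spanned a median of 3585 bp and 118 CpGs in the 15 developmental members, and 2008 bp and 68 CpGs in the 11 broadly expressed members that had one. The run of Foxk2 began only 4259 bp into the gene, at its inner start. Foxs1, Foxi1, Foxi2, Foxn1, Foxn3 and Foxp1 had no run from the covered CpG nearest the annotated start. Some runs end at the last covered CpG, so their lengths depend on RRBS coverage.

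Within the methylated stretches, the difference also varied with the base that follows the CpG, read on each strand. This comparison was chosen after the data were seen. Among the 235 member CpGs of at least 50% in wild type, those followed by C or T on neither strand went from 75.4% to 62.7% (-12.7 points, 79 CpGs). Those followed by C or T on 1 strand went from 75.7% to 53.6% (-22.1 points, 104 CpGs), and on both strands from 75.8% to 48.3% (-27.6 points, 52 CpGs). The wild-type levels of the 3 sets were nearly equal. Called CpGs made up 2.53%, 17.3% and 19.2% of them. All shared CpGs of that level had the same order, at -10.2, -17.2 and -21.9 points. Broadly expressed members followed it, at -9.24, -14.2 and -26.1 points, whereas the few developmental CpGs did not, at -31.1 (11 CpGs), -38.8 (16) and -27.5 (9). In each of the 3 sets the developmental value lay below the broadly expressed one, but with C or T on both strands the 2 values were close, at -27.5 and -26.1. At Foxs1, -20.9 points over 6 CpGs stood beside -41.5 over 11 and -41.8 over 4. The parts of read depth and place in the gene in these values were not tested.

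In Dnmt TKO the family was unmethylated. Of 25442 reads over 1648 member CpGs, 7 were methylated, or 0.0275% (Wilson 95% interval 0.0133% to 0.0568%), beside 0.0900% over all protein-coding genes. These reads lay in Foxk1 (3) and in Foxd1, Foxd2, Foxd3 and Foxo3 (1 each). At the 92 member CpGs of at least 20% in wild type that all 3 libraries covered, wild type averaged 62.2%, Dnmt3a KO 40.7% and Dnmt TKO 0.150%. At Foxs1, 0 of 343 reads summed over 17 CpGs were methylated, which would allow a share of up to 0.875% if all were independent. A read is counted at each CpG it covers, so this limit is too low and the Wilson interval too narrow. Incomplete conversion and residual methylation cannot be told apart at this level.

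Genes that work with forkhead factors were read from lists by role. The 10 genes of the NODAL-SMAD pathway around FOXH1 had a median wild-type level of 9.91% and a median difference of -1.75 points, with 9 of 495 shared CpGs called lower, 5 in Smad3 and 4 in Acvr2b, and 0 higher. The promoter of Lefty1, a NODAL antagonist, stood at 28.0% (13 CpGs) and 9.44% (10 CpGs), over each library's own CpGs. The 9 upstream regulators of FOXO factors had a median difference of -1.77 points with 5 of 748 CpGs called lower, 3 of them in Akt1, the kinase that excludes FOXO from the nucleus, and 1 each in Akt2 and Insr. The 7 cell cycle genes driven by FOXM1 had a median difference of -0.0608 points over 6 measured genes, and 1 of 182 CpGs was called lower, in Aurkb. These medians stand beside -1.80 for all protein-coding genes, and the shares called lower, 1.82%, 0.668% and 0.549%, beside 1.64% of all shared CpGs. As a check of cell identity by promoters alone, the pluripotency genes Pou5f1 and Sall4 were at 0% in wild type and Tdgf1 and Zfp42 at 0.446% and 1.21%. Esrrb stood at 60.6% over 7 CpGs at its annotated start, and Nanog and Dppa4 had no covered promoter CpG. Over the whole window, 4 of these 7 marker genes had at least 5 shared CpGs and a median difference of -8.10 points, with Pou5f1 at -10.3, Sall4 at -9.94, Esrrb at -6.26 and Tdgf1 at -0.714. In them 4 of 88 shared CpGs were called lower in Sall4, 2 of 96 in Esrrb, 0 of 11 in Pou5f1 and 0 of 10 in Tdgf1. Of all shared CpGs, 1.64% were called lower. Expression was not measured here.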

How the data were processed

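The RRBS data were deposited as 1 table per genotype. Per the paper's methods, the authors aligned reads to mm9 with QuasR and left out CpGs that overlap known variants; the submitters' processing notes also name Trim Galore and Bowtie. The deposited counts are the reads and methylated reads per CpG, with no normalization, and the deposited methylation score is the fraction of methylated reads. The lowest coverage listed was 10 reads. All 1385916 positions on the autosomes, X and Y were a CG in mm9. Total reads over CpGs were 47688375, 21602895 and 9308942.

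The members, classes and gene lists were chosen with earlier results of these data known. CpGs with more than 10 reads in GENCODE vM1 gene windows were used; the study states more than 20, which was tried as an alternative. A gene level is the mean over its CpGs and needs at least 5. Fisher's exact test (two-sided) was run on all shared CpGs with Benjamini-Hochberg adjustment, and checked on simulated data. Named in full were the 5 members of each class with the largest decrease, the 2 with the smallest, members with a promoter of at least 20% in wild type, and all with called CpGs; sequences were chosen by called CpGs and by CpGs measured in all 3 libraries, leaving out UTRs, and the promoter stretch for members of neither class lies within the one shown for Foxs1. In the 3 stretches with called CpGs, capitals mark called rather than all measured CpGs. Lists: NODAL-SMAD genes, FOXO regulators, FOXM1 cell cycle genes and pluripotency markers. Single-sample shares use Wilson intervals at 95%, and a count of 0 allows 3 reads. Both treat CpGs on 1 read as independent. Python 3.11.15 with numpy 2.4.6, pandas 2.3.3, numba 0.67.0 and scipy 1.17.1 was used. The promoter table of the other genome build was not used here.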

Additional observations from a re-analysis of the deposited data

How the results depend on the processing

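No paired analysis was possible because each genotype has 1 library, and for the same reason no replicate could be left out. Of 100 alternative values, 50 moved by more than their main value's tolerance and 50 did not. No difference changed sign, and counts and levels cannot change sign. The cause was not tested where a value moved. CpGs called lower numbered 26 at an adjusted p of 0.01 and 18 with thinned reads. Members lower by at least 10 points numbered 2 above 20 reads and 3 with at least 10 shared CpGs a gene, and 8 were lower by 5 points. For the mean difference over shared CpGs of developmental and broadly expressed members, -2.08 and -3.21 in the report, the values were -1.51 and -1.44 above 20 reads, -1.50 and -1.87 with methylated reads divided by all reads, -1.36 and -3.68 without the gene's sides, -0.512 and -0.265 in promoters, -5.29 and -1.23 upstream, -2.58 and -5.54 in bodies, and -7.32 and -7.13 downstream. The order of the classes was thus not stable. Developmental members had the smaller decrease in the report, but the larger one above 20 reads, in promoters, upstream and downstream. The developmental mean over CpGs without Foxa3 was -1.71. At CpGs of at least 50%, selection in Dnmt3a KO gave -14.0 and -7.18, and the broadly expressed value within 10000 bp of the start was -23.0. The median level of developmental members, wild type first and Dnmt3a KO next, was 3.16% and 0.414% above 20 reads, 1.80% and 0.620% by pooled reads, 0.803% and 0.283% without the sides, and 1.10% and 0.468% at CpGs of all 3 libraries. For broadly expressed members it was 13.9% and 0.774%, 9.39% and 8.87%, 31.2% and 19.8%, and 3.72% and 3.16% in the same order, and 14.3% and 10.7% without Foxn1 and Foxn4. Median wild-type promoter levels were 0.528% (developmental) and 0.101% (broadly expressed) above 20 reads, and 0.234% (developmental) with 500 bp either side. Leaving out Foxa3, the 10000 bp limit and the median over genes were chosen once the data had been seen. At a median of 21 reads per member CpG in Dnmt3a KO and 14 in Dnmt TKO, small differences at single CpGs were not detectable.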
